A study of Mus musculus with 48 samples.

Results

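The elements described here are 905 of the 11709 regions in a massively parallel reporter assay of the developing mouse cortex. They are the regions that the deposited table assigns to a class named NSC and whose names carry the label unc. The NSC class held 3125 regions in all, and the other 1134 and 1086 carry the labels asc and desc. The sources used here do not explain the 3 labels, which therefore serve as names. The table gives neither coordinates nor sequences for these regions, so no gene, position or motif is attached to them. Of the other regions, 996 are scrambled sequences that served as controls.

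A massively parallel reporter assay places many candidate regulatory DNA regions next to a reporter gene and counts the RNA that each one drives relative to its plasmid DNA. Enhancers are regulatory regions that raise transcription from a promoter, and in the developing cortex many act in one cell type or for a limited time. Neural stem cells of the cortical wall express the transcription factor Pax6, divide at the ventricle and give rise to intermediate progenitors. Intermediate progenitors express Tbr2 (also called Eomes) and divide to produce neurons. As embryonic development proceeds, the stem cells shift from producing deep-layer neurons to upper-layer neurons and later to glia.

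The library was introduced by in utero electroporation into the somatosensory cortex of C57BL/6JRj embryos between embryonic day (E) 12 and E16, and the cells were isolated after a further 24 h, at ages E13, E14, E15, E16 and E17. Tbr2-positive intermediate progenitors (IPC) and Pax6-positive neural stem cells (NSC) were sorted at each age after fixation and staining. All groups share the mouse strain, the tissue and the electroporated library, and no genotype or drug was compared. For each cell type there were 3 biological samples at E14 and at E15 and 2 at E13, E16 and E17, which makes 24 samples and, with DNA and RNA sequenced from each, 48 libraries. The deposited table combines them into 1 value per element for each of the 10 pairs of cell type and age, called columns here, so no difference could be tested across biological samples and the depth behind a value is unknown. An electroporated plasmid also reports only from cells that took it up and still carried it 24 h later.

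Activity is given as the ratio of an element's deposited activity score to the median score of the scrambled controls in the same column. That median differed widely between columns, lying between 0.292 and 1.59 in IPC and between 0.164 and 2.37 in NSC. Log2 activity is the log2 of that ratio plus 0.1, minus the mean of the same quantity over the scrambled controls, so that 0 is the control mean. Of the 905 unc elements, 842 (93.0%) had a value in all 10 columns, and each column held 871 to 903 of them. The scores are reporter activities only, so no marker gene could be read to check the sorted cell types.

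The unc elements were on average more active than scrambled sequence, and the excess was larger in neural stem cells than in intermediate progenitors. In IPC columns the median unc element had 1.05, 1.03, 1.07, 1.03 and 1.20 times the scrambled median at E13, E14, E15, E16 and E17. In NSC columns the corresponding values were 1.04, 1.26, 1.27, 1.28 and 1.36. The highest IPC value was that of E17 and the lowest NSC value that of E13, where the cell types differed little; from E14 to E17 each NSC median exceeded all IPC medians.

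On the log2 scale the mean of the unc elements in IPC columns was 0.062 ± 0.039, 0.047 ± 0.029, 0.060 ± 0.035, 0.074 ± 0.048 and 0.25 ± 0.038 in order of age (SE over elements). In NSC columns it was 0.18 ± 0.057, 0.38 ± 0.038, 0.30 ± 0.036, 0.32 ± 0.043 and 0.41 ± 0.027 in the same order. All 10 means lay above 0, and in IPC those of the first 4 ages lay nearest to it. The SE describes the scatter among elements and is no replicate error of a column. Over the 10 columns the mean was 0.21 ± 0.14 (SD, n = 10 columns), above the scrambled controls in 10 of 10 (exact sign-flip permutation test, two-sided, p = 0.00195, the smallest that 1024 flips allow; Benjamini-Hochberg adjusted p = 0.00586 over the 6 tests of this kind). Here and below, such a p covers the spread between columns only. The columns share the same elements and the same library, and the cell types share the ages, so they are not independent experiments.

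The mean over the 5 ages was 0.099 ± 0.085 in IPC columns and 0.32 ± 0.092 in NSC columns (SD, n = 5 columns each). Over all non-scrambled elements it was 0.13 in IPC and 0.12 in NSC. Averaged over ages, the unc mean was thus below that of the library in IPC and above it in NSC, which was not tested. In IPC at E17 the unc mean was the higher, 0.25 against 0.22. The IPC median ratio was also higher for unc at E13 (1.05 against 1.04) and E17 (1.20 against 1.18). IPC minus NSC of the unc elements was negative at 5 of 5 ages, between -0.34 and -0.11, and averaged -0.22 (two-sided exact permutation test over all splits of the columns by cell type, p = 0.0159, adjusted p = 0.0238). The difference lost its call when E13, E14, E15 or E16 was left out (exact permutation, adjusted p = 0.0571, 0.0857, 0.0857 and 0.0857) and kept it without E17 (adjusted p = 0.0343). Paired by age, 5 differences allow no p under 0.0625, and the exact sign-flip adjusted p was 0.075; with a pseudocount of 1 the difference was -0.14, with the call kept.

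**Figure D1:**
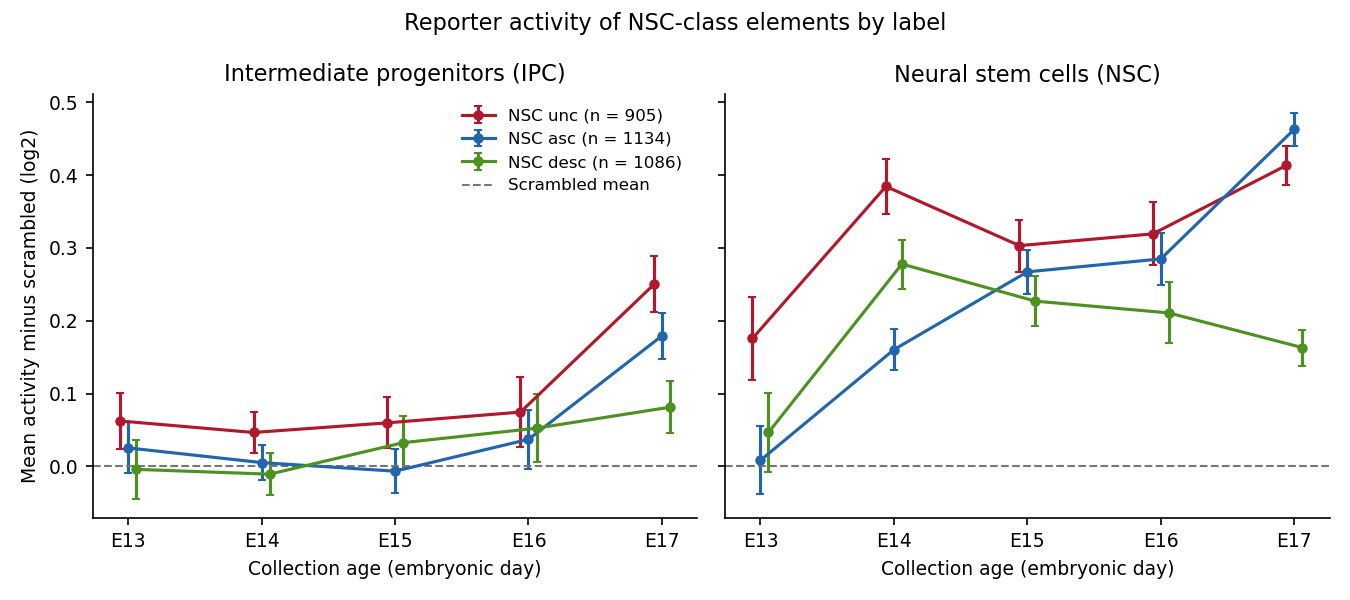
Mean log2 activity of NSC-class elements relative to the scrambled mean (dashed line at 0) at each collection age in intermediate progenitors (left) and neural stem cells (right), by label; error bars are SE over elements. The unc mean lies above 0 in all 10 columns and below the asc mean in 1 of them, NSC at E17.

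Within the NSC class, the unc label stood above both other labels over the 10 columns as a set. The unc minus asc difference was positive in 9 of 10 columns and averaged 0.067 ± 0.077 (SD; exact sign-flip permutation p = 0.0137, adjusted p = 0.0238). The unc minus desc difference was positive in 10 of 10 columns and averaged 0.10 ± 0.069 (SD; exact sign-flip permutation p = 0.00195, adjusted p = 0.00586). The difference from asc lost its call when E13, E14, E15 or E16 was left out (exact sign-flip adjusted p 0.0703 to 0.0857), with values of 0.050 to 0.080 over the 5 ages left out in turn. It was 0.041 with medians over elements (7 of 10 columns positive), and unc minus desc was 0.048 with a pseudocount of 1 (9 of 10 positive), both keeping their calls. The NSC values of unc minus asc from E13 to E17 were 0.17, 0.22, 0.036, 0.034 and -0.050. The unc elements thus led by most at the early ages and stood slightly below asc at E17. Against desc the NSC values were 0.13, 0.11, 0.076, 0.11 and 0.25 at the same ages, with the widest gap at E17. By median ratio asc stood slightly above unc in NSC at E15 (1.268 against 1.266), E16 (1.2781 against 1.2778) and E17 (1.40 against 1.36).

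In IPC columns the label differences were 0.037 to 0.071 for unc minus asc and 0.022 to 0.17 for unc minus desc, the second highest at E17. From E15 to E17 unc minus asc was 0.066, 0.037 and 0.071 in IPC, above its NSC value at each of these ages. Averaged over ages, unc minus asc was 0.051 in IPC and 0.082 in NSC, and unc minus desc was 0.068 in IPC and 0.13 in NSC. Neither label difference was shown to differ between the cell types. IPC minus NSC of the unc minus asc difference was -0.032 (exact permutation adjusted p = 0.524), turning to 0.027 with medians over elements, and that of the unc minus desc difference was -0.066 (exact permutation adjusted p = 0.171). Without E17 the last value was -0.062 and passed the test (exact permutation adjusted p = 0.0343). With all ages it was positive at 0 of 5 ages, between -0.086 and -0.049. Paired by age its exact sign-flip p was 0.0625, the smallest that 5 differences allow. With medians over elements it was -0.030 and positive at 3 of 5 ages.

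The excess of the unc elements in neural stem cells was spread over the whole distribution and was widest at its top. Setting each percentile of the unc elements against the same percentile of the scrambled controls, the log2 gap in IPC columns averaged -0.020 at the 10th percentile, 0.066 at the 25th, 0.10 at the 50th, 0.16 at the 75th and 0.19 at the 90th. The 10th percentile lay above that of the controls at 2 of 5 ages in IPC. In NSC columns the gaps averaged 0.14, 0.25, 0.31, 0.44 and 0.54, and all of them were above 0 at 5 of 5 ages. The upper end of the unc distribution thus stood above the controls in both cell types, and the lower end in NSC. At the same percentiles in NSC columns the asc gaps averaged 0.14, 0.24, 0.28, 0.30 and 0.31. Those of desc averaged -0.10, 0.057, 0.21, 0.34 and 0.44. A gap widening to the top was thus shared by both other labels, and the raised lower end by asc.

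At the 90th percentile the unc elements had ratios of 3.71, 2.07, 2.78, 3.79 and 3.69 in IPC columns from E13 to E17, against 3.46, 1.86, 2.58, 3.50 and 2.71 for scrambled controls. In NSC columns the 90th percentile was 5.85, 3.82, 3.10, 4.5 and 2.76 for unc elements, against 4.68, 2.27, 2.38, 2.86 and 1.83 for scrambled controls. The widest such gap was that of NSC at E14, where it reached 0.75 on the log2 scale. At the 10th percentile in NSC columns, the unc elements had 0.227, 0.541, 0.464, 0.452 and 0.621, against 0.205, 0.480, 0.441, 0.429 and 0.536 for scrambled controls. The controls themselves spread most in NSC at E13, where their median absolute deviation was 1.05 times their median, and least in NSC at E17, at 0.432 times. An element of a given ratio is therefore less far from the controls in NSC at E13 than in NSC at E17.

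**Figure D2:**
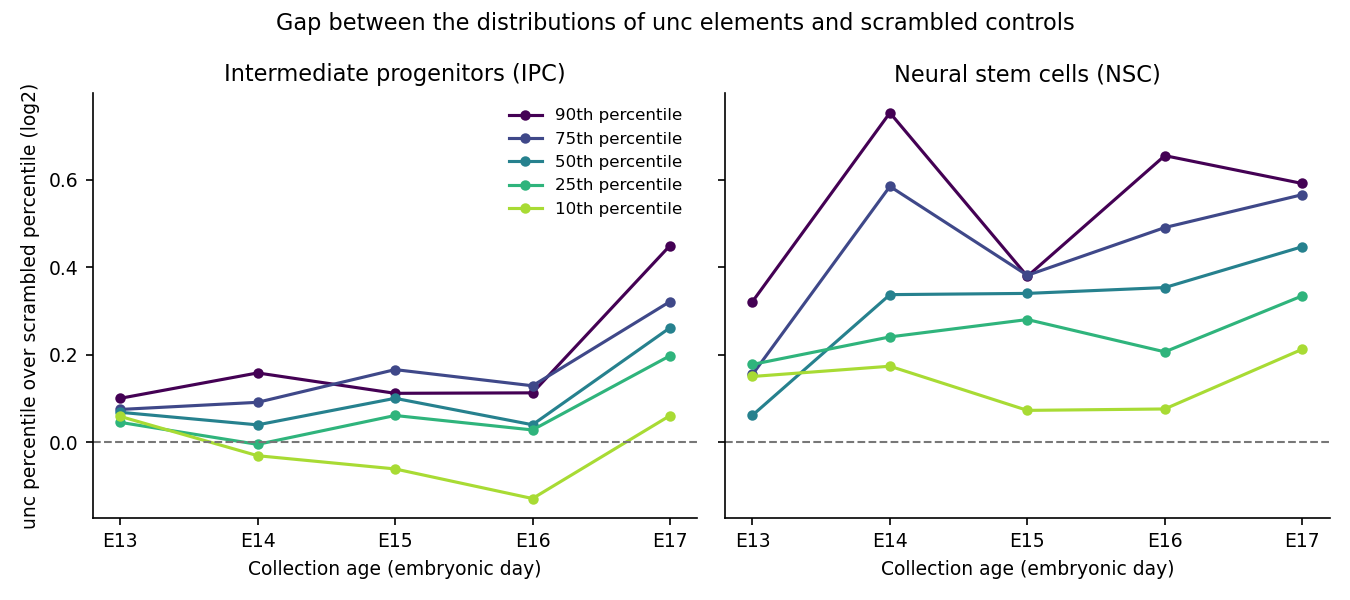
Log2 of a percentile of the unc elements over the same percentile of the scrambled controls, by collection age, in intermediate progenitors (left) and neural stem cells (right); each line is 1 percentile. In neural stem cells every line is above 0 at every age, and the 90th percentile reaches 0.75 at E14.

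The share of unc elements above the scrambled median, which is 50 in 100 for the controls by construction, was 53.1%, 52.7%, 53.7%, 51.0% and 58.8% in IPC columns from E13 to E17. Over all non-scrambled elements the IPC shares were 52.2%, 53.0%, 54.0%, 53.1% and 57.5%, so the unc elements stood near the rest of the library there. In NSC columns 51.5%, 62.6%, 63.7%, 62.3% and 71.4% of unc elements lay above it, against 49.6%, 56.5%, 57.4%, 56.5% and 59.3% of all non-scrambled elements. The NSC share at E17 had a 95% Wilson interval of 68.4% to 74.3%. Wilson intervals here cover the sampling of elements only.

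High activity was counted against a limit set so that 2.5% of the scrambled values lay above it. In IPC columns 3.49%, 3.44%, 2.16%, 4.02% and 6.59% of unc elements exceeded it from E13 to E17, against 5.38%, 5.84%, 3.77%, 4.64% and 6.85% of all non-scrambled elements. In NSC columns 4.64%, 6.79%, 4.47%, 4.53% and 11.3% of unc elements did so, against 3.17%, 4.12%, 3.49%, 3.41% and 6.52% of all non-scrambled elements. The unc share was the lower of each pair in IPC and the higher in NSC, but these differences were not tested. In IPC at E16 and E17 the library's share lay inside the unc Wilson intervals (2.90% to 5.54% and 5.14% to 8.41%). The same held in NSC at E15 and E16 (3.30% to 6.03% and 3.34% to 6.11%). At E17 in NSC, 11.7% of asc and 7.46% of desc elements passed it, so the unc share there was close to that of asc.

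Means over the 5 ages gave a wider separation of the labels. In IPC columns 51 of 853 unc elements (5.98%, Wilson interval 4.58% to 7.78%) exceeded the upper limit of 0.98 on the log2 scale, against 4.06% of asc, 6.12% of desc and 8.61% of all non-scrambled elements. In NSC columns 117 of 867 unc elements (13.5%, 11.4% to 15.9%) exceeded the limit of 1.06, against 6.40% of asc, 8.44% of desc and 6.05% of all non-scrambled elements. At the other end, 1.76% of unc elements in IPC and 1.04% in NSC lay under the lower limit, against 2.05% and 2.15% of all non-scrambled elements. Among the 842 unc elements with all 10 values, 16 exceeded both upper limits, which is 32.0% of the 50 high in IPC and 13.8% of the 116 high in NSC. No scrambled control with all 10 values exceeded both, of 955. Over all non-scrambled elements the same overlap was 12.4% of those high in IPC and 17.8% of those high in NSC. The unc overlap was thus the larger for IPC and the smaller for NSC, which was not tested. Most unc elements that were high in 1 cell type were not high in the other, and this held for the library too.

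The unc elements also lay above the scrambled median repeatedly, more so in NSC. In IPC columns 81 unc elements (9.50%) lay above the scrambled median at all 5 ages, against 8.95% of the non-scrambled library and 4.15% of the controls. In NSC columns 151 unc elements (17.4%) did so, against 13.3% of asc, 10.9% of desc, 9.55% of all non-scrambled elements and 3.19% of the controls. Only 11 unc elements (1.27%) lay at or below the median at all 5 ages in NSC, against 2.63% of the non-scrambled library and 3.70% of the controls.

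The deposited adjusted p-value of the authors sets an element against the scrambled distribution of the same column, and elements under 0.05 are called here. In IPC columns 17.7%, 8.54%, 12.1%, 13.9% and 17.9% of unc elements were called from E13 to E17, against 19.6%, 11.3%, 14.9%, 16.1% and 18.7% of all non-scrambled elements. The same threshold called 15.7%, 6.66%, 11.1%, 12.4% and 10.3% of the scrambled controls. In NSC columns 17.5%, 22.8%, 15.3%, 23.6% and 22.0% of unc elements were called, against 15.3%, 14.7%, 12.5%, 19.4% and 13% of all non-scrambled elements and, among the controls, 13.3%, 9.77%, 8.11%, 12.9% and 6.16%. These differences in shares were not tested.

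Calls repeated over ages set the unc elements further from the controls. In at least 3 of the 5 IPC columns, 34 unc elements (3.76%, Wilson interval 2.70% to 5.2%) were called, against 2.03% of asc, 2.76% of desc, 5.00% of the non-scrambled library and 1.20% of the controls. In at least 3 of the 5 NSC columns, 85 unc elements (9.39%, 7.66% to 11.5%) were called, against 6.26% of asc, 6.45% of desc, 4.66% of the non-scrambled library and 1.31% of the controls. Of these elements, 7 were in both lists, 20.6% of the IPC list and 8.24% of the NSC list. This overlap was not counted over all non-scrambled elements or the controls, so it cannot be called particular to the unc elements. Called in at least 1 column were 443 unc elements (49.0%) in IPC and 542 (59.9%) in NSC, against 53.0% and 50.3% of all non-scrambled elements.

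**Figure D3:**
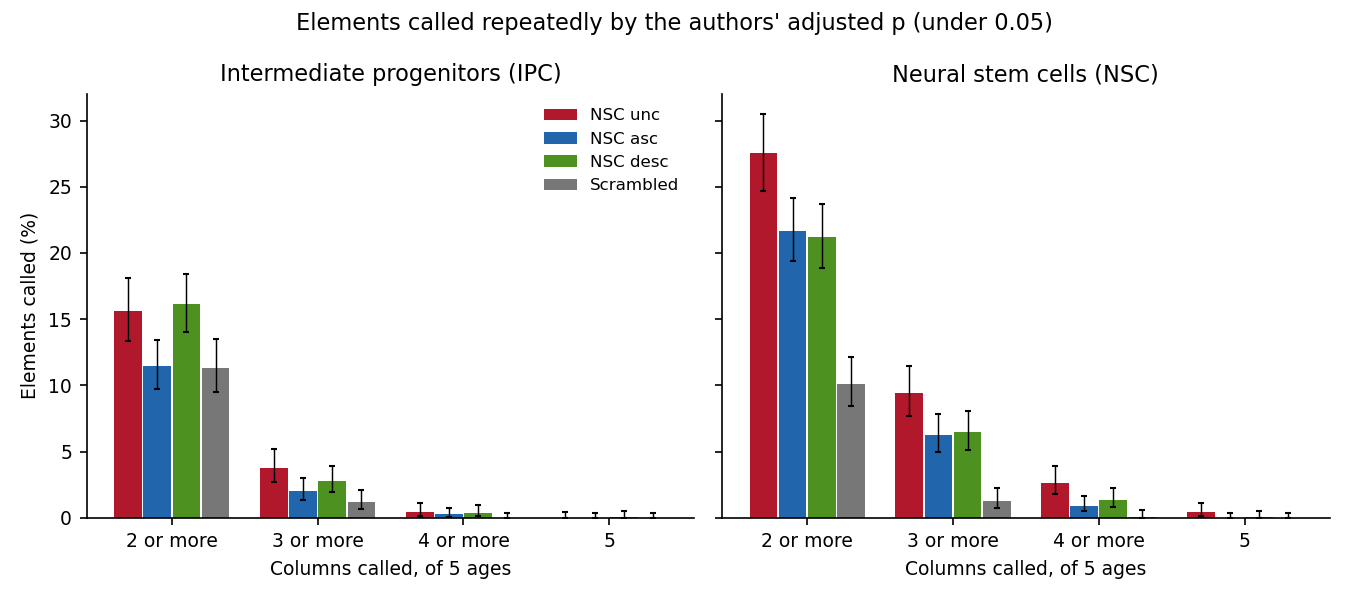
Percent of elements called by the deposited adjusted p (threshold 0.05) at 2 or more, 3 or more, 4 or more or all 5 ages, in intermediate progenitors (left) and neural stem cells (right), by label and for scrambled controls; error bars are 95% Wilson intervals over elements. At 3 or more ages in neural stem cells the unc bar stands at 9.39%, against 1.31% for the scrambled controls.

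At 4 or more ages 4 unc elements (0.442%) were called in IPC and 24 (2.65%) in NSC, where all non-scrambled elements had 1.44% and 0.859%. No unc element was called in all 5 IPC columns, against 0.252% of all non-scrambled elements. All 5 NSC columns called 4 unc elements, out of 10 in the whole library (0.0933% of non-scrambled elements); the other 6 were 5 regions of a class named E14 and 1 desc element. The 4 elements were singled out after their values had been seen.

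The first of them, unc element 1285, had ratios of 0.869, 1.09, 2.62, 4.16 and 1.42 in IPC columns and 14.5, 4.88, 3.30, 2.74 and 2.91 in NSC columns from E13 to E17. The next, unc element 1305, had 2.77, 1.11, 0.994, 1.52 and 2.91 in IPC and 8.68, 4.14, 2.82, 2.95 and 3.70 in NSC. Both were highest in NSC at E13 and lay between 2.74 and 4.88 times the scrambled median at the later ages, and in each the IPC and NSC values overlapped. The third, unc element 58, had 0.524, 0.604, 1.83, 0.976 and 0.769 in IPC and 4.29, 3.77, 2.74, 4.42 and 3.11 in NSC. Its IPC and NSC values did not overlap, and it was called in 0 IPC columns. The last, unc element 184, had 2.11, 0.997, 1.35, 0.952 and 3.34 in IPC and 5.74, 5.10, 2.76, 2.51 and 2.68 in NSC. Its IPC value at E17 exceeded its NSC values from E15 to E17. By mean NSC activity these elements ranked 9, 15, 24 and 27 among the unc elements, so none of them was among the highest 5.

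Several of the elements of highest mean NSC activity owed much of it to 1 or 2 columns. The highest, unc element 619, averaged 0.83 in IPC and 2.70 in NSC on the log2 scale. It had ratios of 1.63, 2.93, 2.61, 0.602 and 3.79 in IPC columns and 57.6, 2.14, 1.97, 17.3 and 4.94 in NSC columns from E13 to E17. Its NSC values at E13 and E16 were far above the others, and without the highest column its NSC mean was 1.97. The second, unc element 277, had 1.78, 2.58, 1.38, 2.51 and 2.14 in IPC and 29.0, 0.554, 5.14, 89.0 and 1.15 in NSC. It too was highest at E13 and E16 and lay below the scrambled median at E14. Unc element 1315, the third, had 1.66, 1.82, 2.24, 0.488 and 2.79 in IPC and 3.50, 36.4, 1.73, 8.33 and 4.13 in NSC, with its highest value at E14.

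The fourth, unc element 1207, was the exception in being higher in IPC, with a mean of 3.0 there and 2.28 in NSC. Its ratios were 8.39, 0.599, 75, 19.3 and 8.15 in IPC columns and 4.68, 0.377, 334, 1.88 and 3.44 in NSC columns. It was the highest unc element at E15 in both cell types and below the scrambled median at E14 in both. Without NSC at E15 its NSC mean was 0.80, under the upper limit. At E15 in NSC the highest scrambled control had a ratio of 82.8, and unc element 1207 was the 1 unc element above it.

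Next in rank, unc element 208 had ratios of 1.33, 2.12, 3.06, 1.79 and 1.45 in IPC columns and 14.8, 5.24, 2.56, 5.00 and 4.14 in NSC columns. Of the 5 highest it had the narrowest range in NSC, and its NSC mean without the highest column was 1.87 against 2.23 with it. Unc element 208 and unc elements 1044, 266 and 701 were called in 4 of 5 NSC columns. The last 3 ranked next to each other, with NSC means of 2.12, 2.06 and 2.04 and IPC means of 0.91, 1.00 and 1.18. Unc element 101, the last of the 10, averaged -0.82 in IPC and 1.99 in NSC. Its ratios were 1.71, 2.79, 0.116, 0.0707 and 0.557 in IPC and 5.07, 0.355, 41.2, 39.8 and 0.418 in NSC, so its mean rested on E15 and E16. Of the 10 elements with the highest NSC means, 9 were higher in NSC than in IPC on average, and 0 scrambled controls had a higher NSC mean than any of them. Both counts follow in part from picking the elements by their NSC mean, so they are no support for a difference between cell types. Picking the highest means also favours elements with 1 extreme column, and no error per element is known.

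**Figure D4:**
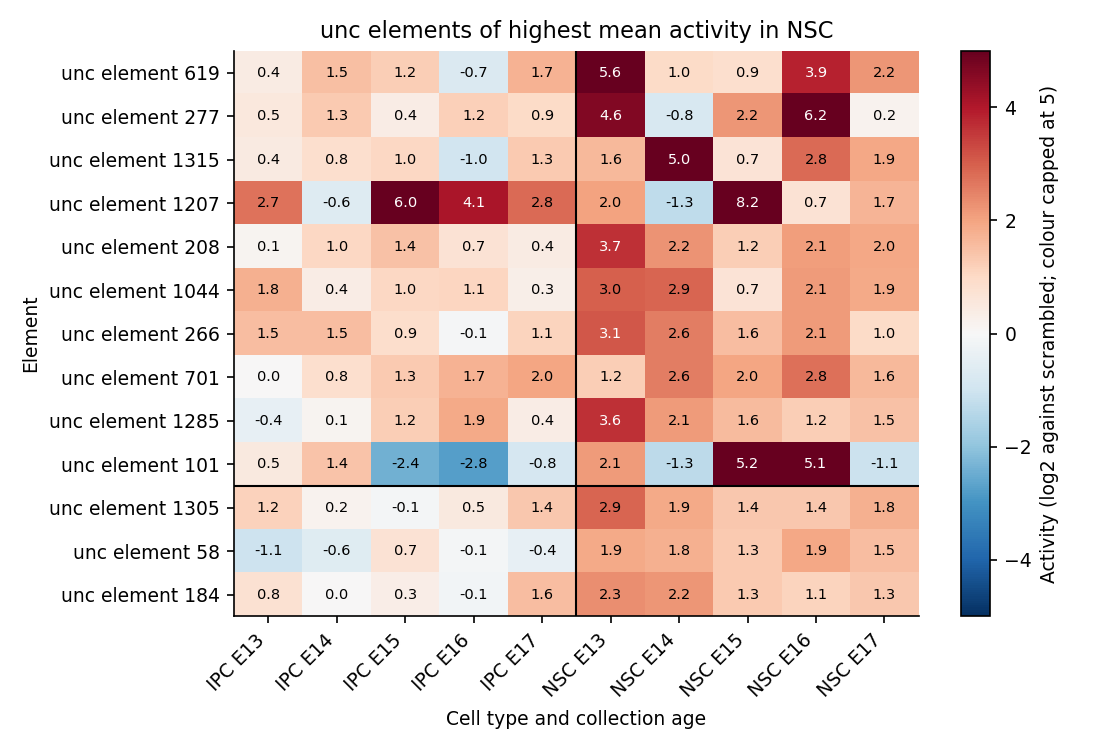
Log2 activity of unc elements relative to the scrambled mean in each column, IPC columns left of NSC columns, for the 10 elements of highest mean NSC activity (above the line) and the 3 further elements called at all 5 ages in NSC (below it). Colours are capped at 5 and numbers give the values; unc element 1207 reaches 8.2 in NSC at E15, and the 3 lower elements lie between 1.1 and 2.9 in all NSC columns.

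For single elements, differences between the cell types were counted against the controls. Of the 842 unc elements with all 10 values, 19 (2.26%) had a mean IPC minus NSC difference above the upper limit of the controls (1.22), against 5.15% of all non-scrambled elements. Below the lower limit (-1.41) lay 38 (4.51%), against 3.01% of all non-scrambled elements. Counted by sign, IPC was the higher at every age in 18 unc elements (2.14%) and NSC in 55 (6.53%). The background was 4.40% and 4.13% over all non-scrambled elements, and 2.62% and 3.14% over scrambled controls. The asc label had 1.03% and 7.65% and the desc label 2.87% and 5.02%, so the tilt towards NSC was shared by the whole class.

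**Figure D5:**
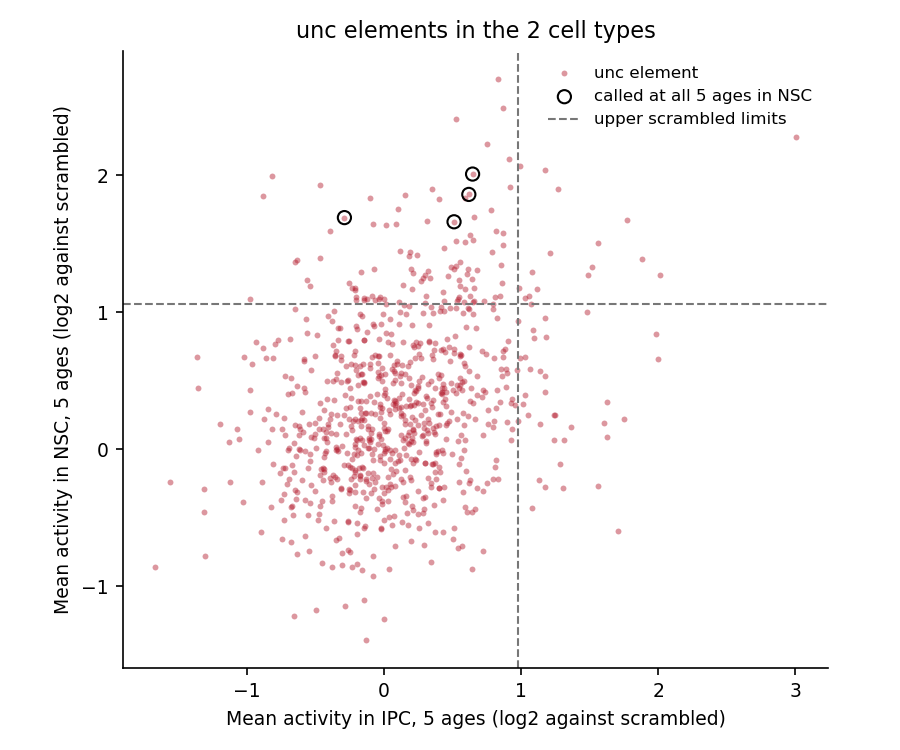
Mean log2 activity over 5 ages of each unc element with all 10 values in intermediate progenitors (horizontal axis) against neural stem cells (vertical axis); dashed lines are the upper scrambled limits of 0.98 and 1.06, and open circles mark the 4 elements called at all 5 ages in neural stem cells. More elements lie above the horizontal line (116) than right of the vertical line (50), and 16 lie beyond both.

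Where the sign was the same at every age, unc element 1327 differed most towards IPC (1.54). Its ratios were 9.97, 2.07, 1.04, 4.74 and 4.95 in IPC columns and 1.49, 0.962, 0.577, 0.931 and 2.21 in NSC columns, and its IPC values at E13, E16 and E17 exceeded all its NSC values. It was called in 3 IPC columns and 1 NSC column. For unc elements 1449, 391, 1200 and 1160 the differences were 1.52, 1.46, 1.27 and 1.05, and their NSC means lay below 0, between -0.87 and -0.22. These 4 were each called in 1 or 2 IPC columns and in 0 NSC columns.

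Towards NSC, the largest such difference was that of unc element 1178 (-2.40), with ratios of 2.03, 0.320, 1.45, 0.120 and 1.30 in IPC columns and 46.9, 2.93, 4.32, 0.653 and 3.27 in NSC columns. At E16 both values were below the scrambled median, so the difference there lay between 2 low values. Unc element 242 (-2.04) had 0.454, 0.190, 0.251, 0.298 and 0.752 in IPC and 1.08, 1.27, 2.65, 1.71 and 2.52 in NSC. Its IPC values were all below the scrambled median and its NSC values all above, with no overlap, though its NSC mean of 0.68 stayed under the upper limit. The differences of unc elements 914, 315 and 58 were -2.02, -2.02 and -1.98. All 5 elements were called in 0 IPC columns and in 2 to 5 NSC columns.

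As a group the unc elements had a shallow slope of activity with age. The least-squares slope of the column means was 0.040 per day in IPC and 0.041 per day in NSC, against 0.034 and 0.10 for asc and 0.023 and 0.017 for desc. Each slope rested on an age at one end. Without E17 the IPC slope was 0.0050 per day, and without E13 the NSC slope was 0.010 per day. The 5 ages are single columns, and no test of a slope was made.

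Element by element, 31 of 853 unc elements (3.63%) rose beyond the upper scrambled limit for the IPC slope (0.63 per day) and 24 (2.81%) fell beyond the lower one, against 4.56% and 3.86% of all non-scrambled elements. In NSC 27 of 867 (3.11%) lay above the upper limit (0.67 per day) and 24 (2.77%) below the lower one (-0.81), against 3.33% and 2.46% of all non-scrambled elements. The scrambled controls had 2.57% on each side in NSC by construction. Both E16 and E17 exceeded both E13 and E14 in 168 unc elements (19.4%) in NSC, against 19.7% of all non-scrambled elements and 17.5% of controls. The reverse held for 106 (12.2%), against 14.2% and 15.6%. By the slope limits the unc shares in NSC were thus near those of the library and the controls. By late against early ages the rising share was near that of the library and above that of the controls. The falling share lay below both, which was not tested.

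Among elements whose late ages lay beyond both early ones, the steepest NSC slopes rested on single columns in some cases and not in others. Unc element 925 had the steepest rise, 1.24 per day, with ratios of 0.265, 0.908, 1.00, 23.2 and 5.30 from E13 to E17 in NSC columns. Unc elements 727, 486, 1432 and 126 followed, with slopes of 1.23, 1.04, 1.00 and 0.99 per day. The steepest fall was that of unc element 1307, -1.71 per day, with 56.2, 3.54, 1.27, 0.142 and 0.456. Without E13 its slope was -1.05. Unc element 908 fell at every step, with 22.5, 6.82, 4.91, 0.638 and 0.427, and its slope was -1.38 without E13. Unc elements 908, 630, 1171 and 816 had slopes of -1.40, -1.26, -1.23 and -1.19 per day, and that of unc element 1171 was -0.21 without E13. All 5 falling elements were highest at E13, the column in which the controls spread most, and 4 of the 5 rising ones were highest at E16. The part of that spread in the slopes was not tested.

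Values of single unc elements agreed weakly between columns. Across elements, the mean Spearman correlation between 2 columns was 0.10 within IPC, 0.14 within NSC (0.099 to 0.21) and 0.10 between an IPC and an NSC column. Scrambled controls had 0.059, 0.018 and 0.027, and within NSC the asc and desc labels had 0.071 and 0.091. The points of such a correlation are elements that share the library and the samples of a column, so these values are descriptions. The SD of an unc element over the 5 ages had a median of 0.83 in IPC and 0.89 in NSC on the log2 scale, against 0.82 and 0.87 for scrambled controls. The scatter of a single unc element between ages was thus about that of a scrambled sequence.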

How the data were processed

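The 48 libraries, DNA and RNA from 24 samples, were grouped by cell type and age as labelled. Cutadapt and the mouse build mm10 are named, per the submitters' processing notes, with no versions. No source used here names the aligner, the barcode counting or the activity software. The authors deposited 3 measures per column: an activity score, a second score and a p-value. Recomputed from the deposited values, the second score is the activity minus the scrambled median, divided by 1.4826 times the scrambled median absolute deviation (largest difference 4.66e-12). The deposited p-value is the Benjamini-Hochberg adjusted upper-tail normal p of that second score, column by column (largest difference 6.11e-15).

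From these, ratios to the scrambled median, log2(ratio + 0.1) and column means were computed with numpy 2.4.6, pandas 2.3.3 and scipy 1.17.1. Tests were exact permutations of columns, adjusted over 6 tests; no count model fits pooled scores. Limits are the 2.5 and 97.5 percentiles of the scrambled controls. Elements lacking a value were left out of the measure that needs it. The code was tested on values drawn from the scrambled controls, with known log2 shifts or slopes added.

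The unc elements, tests and naming rule were chosen with earlier results of these data known. Named elements had all 10 values and were the 10 highest NSC means, the 5 largest mean differences each way with 1 sign at all ages, and the 5 steepest NSC slopes each way with E16 and E17 both beyond E13 and E14. Percentile gaps, the overlap of high elements, the spread over ages and the elements called in all 5 NSC columns were added after values had been seen. Alternatives changed the summary, pseudocount, limits, thresholds and ages.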

Additional observations from a re-analysis of the deposited data

Results flagged for a closer look

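One value of the unc elements stood apart. Among the 5 IPC columns their mean log2 activity was 0.25 at E17, and its gap to the nearest other column was 0.862 of the whole range, above Dixon's critical value of 0.710 for 5 values. The columns are ages, not replicates, and chance alone marks about 1 in 20 such groups. In the same column the mean over all non-scrambled elements was 0.22 and 57.5% of them lay above the scrambled median, the highest IPC share of the 5 ages.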

How the results depend on the processing

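No paired analysis was possible because the deposited columns pool the replicates of a group, so no replicate block could be fitted; columns were paired by age instead. Of 91 alternative values, 58 kept their direction and their side of the threshold or moved by less than the spread used. With 1 age left out, unc over scrambled was 0.18 to 0.23 and unc minus desc 0.074 to 0.11, both keeping their calls. With a pseudocount of 1, unc over scrambled was 0.14, unc minus asc 0.050, unc minus desc 0.048 and IPC minus NSC -0.14; with medians they were 0.19, 0.041, 0.077 and -0.19, all with their calls kept. Unc minus asc was 0.050 to 0.080 and IPC minus NSC of the unc elements -0.25 to -0.19. Both lost their calls without E13, E14, E15 or E16 and kept them without E17. Leaving out any age leaves fewer permutations, and why the calls were lost was not tested. The cell type difference of unc minus asc was -0.070 to 0.0058 and changed sign without E14; with medians it was 0.027. That of unc minus desc was -0.070 to -0.061 and passed only without E17 (-0.062). IPC columns alone gave 0.099 over scrambled, 0.051 over asc and 0.068 over desc; NSC columns alone gave 0.32, 0.082 and 0.13. With 5 columns the exact p cannot fall under 0.0625. In NSC columns unc minus asc was positive at 4 of 5 ages, with an exact sign-flip p of 0.25. Paired by age, IPC minus NSC was -0.22 with the call lost. The IPC slope was 0.028 per day with a pseudocount of 1 and 0.0050 to 0.062 with 1 age left out. The NSC slope was 0.073 with medians, 0.024 with a pseudocount of 1 and 0.010 to 0.056 with 1 age left out. Shares above the limit became 9.61% (95th percentile) and 2.58% (99th) in IPC and 8.77% (99th) in NSC. Over all non-scrambled elements these were 11.9%, 4.72% and 3.94%, so the unc shares were the lower in IPC. Calls in at least 2 and 4 columns covered 15.6% and 0.442% of unc elements in IPC and 27.5% and 2.65% in NSC. Over all non-scrambled elements they covered 19% and 1.44% in IPC and 17.4% and 0.859% in NSC. At least 2 columns called 11.3% of the controls in IPC and 10.1% in NSC. These differences in shares were not tested. For the NSC slope 6.11% of unc elements exceeded the 95th percentile, which was not counted over all non-scrambled elements. Where construction does not show it, the cause was not tested. Leaving out elements at 0 was not run, as 0 values were 0. Depth is unknown, so no floor or counting interval can be given.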
